A study of Rattus norvegicus with 6 samples.

Results

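Chemokines and their receptors were examined across RNA-seq libraries of rat brain tissue, 3 from a control group and 3 from a hypoxia-ischemia (HI) group. The members were chosen by gene symbol alone (names that begin with Ccl, Cxcl, Cx3c, Xcl, Xcr, Cxcr, Ackr, Ccrl, or Ccr and a digit), which found 56 of the 19382 genes in the table, 34 ligands and 22 receptors. The HI rats were SD (Sprague-Dawley) rats, 7 days old, exposed to ischemia and hypoxia for 2.5 h, a model of brain injury around birth. The controls are labelled only as given a control treatment. The labels name no brain region, no interval between injury and sampling, no sham operation, no control age and no sex. No library is labelled as treated with echinatin, the compound of the series title. Nothing in the labels ties the 3 libraries of a group to separate rats, and p-values therefore cover the scatter of these samples, part of which may be technical.

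Chemokines are small secreted or membrane-bound proteins that direct cell movement by binding receptors coupled to G proteins. Several are made in resting tissue, such as Cx3cl1 by neurons and Cxcl12 by meninges and vessels, whereas others are barely transcribed until NF-kB or interferon signalling switches them on. Atypical receptors, named Ackr, bind chemokines without coupling to G proteins and take them up or present them. In the developing brain, Cxcl12 with Cxcr4 and Ackr3 guides migrating neurons, and Cx3cl1 with Cx3cr1 links neurons to microglia, the resident macrophages of the brain.

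In HI the membrane-bound ligand Cxcl16 rose 6.83-fold and the microglial receptor Cx3cr1 rose 2.34-fold, while reads assigned to Ccl27 fell to 0.606 of the control level. The inducible ligands Cxcl10, Ccl2, Ccl12 and Cxcl1 had 0 to 8 reads in a control library. They had 2 to 32 reads in HI 1 and HI 2, and 123, 97, 31 and 47 in HI 3. Cxcl10 and Ccl2 missed the threshold, and Ccl12 and Cxcl1 had too few reads to be tested. Reads of Cxcl12, Cxcl14, Cx3cl1 and Cxcr4 overlapped between the groups. Most members were close to the limit of detection. No read was found for Ccl1 and Ccr8, 28 members stayed below 10 reads in every library, and 13 had enough reads to be tested.

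The 6 libraries held 13922663 to 14927469 reads, of which 5131 to 7472 fell on the 56 members. Levels are given as CPM, the usual depth-scaled read count, with TMM factors, and 3 reads, the most that a count of 0 allows, equal 0.221 to 0.227 CPM in controls and 0.182 to 0.201 CPM in HI, for counting error only. Libraries differed in more than the labelled group. The summed level of 6 choroid plexus genes was 13.9, 2111 and 5.32 CPM in controls 1, 2 and 3 and 177, 7970 and 15013 CPM in HI 1, 2 and 3. Y-linked genes had 1425, 1801 and 1906 reads in control 3, HI 2 and HI 3 and at most 3 in the others. Among cell markers, 9 of 13 microglia genes rose and 0 fell, with summed levels of 172 to 246 CPM in controls and 395 to 663 CPM in HI. Of 5 neuron genes 0 rose and 3 fell, with sums of 3428 to 4947 CPM in controls and 1089 to 2108 CPM in HI. The tissue thus carries the markers its label names. Over all tested genes 6.83% rose and 7.04% fell.

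Differences were tested with the quasi-likelihood F test of edgeR over 14959 genes, with Benjamini-Hochberg adjustment and a threshold of 0.05. Of the 13 tested members 3 rose and 1 fell, beside 6.83% of all tested genes that rose and 7.04% that fell. Cxcl10, Ccl2 and Ccl3 passed the filter on low counts through their HI reads, as 0, 0 and 1 control libraries reached it, so they had to differ, and the counts over the 13 carry no weight as a group result. Calls depended on single libraries, as the count over all genes did. Of these 13 members, 0 were called by edgeR without control 1, control 2 or HI 2. Of the members tested then, 10 of 20, 12 of 20 and 7 of 16 had an unadjusted p below 0.05. The shares of all genes in those fits were 25.9%, 26.2% and 27.6%. With all libraries 9 of 13 members did, beside 36.5% of all genes. Without HI 3 only Cxcl16 was called, of 14 members tested. Without control 3 there were 6 calls of 21 and without HI 1 there were 10 of 21, both counts including members that enter the test only then. Over all genes, edgeR called 644 of 15079 without HI 3, 1694 of 15335 without control 3 and 3689 of 15265 without HI 1. DESeq2 called 6 of the 13 higher and 2 lower, beside 13.9% and 14.2% of all genes, and limma-voom 4 and 1, beside 3.69% and 5.47%.

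**Figure D1:**
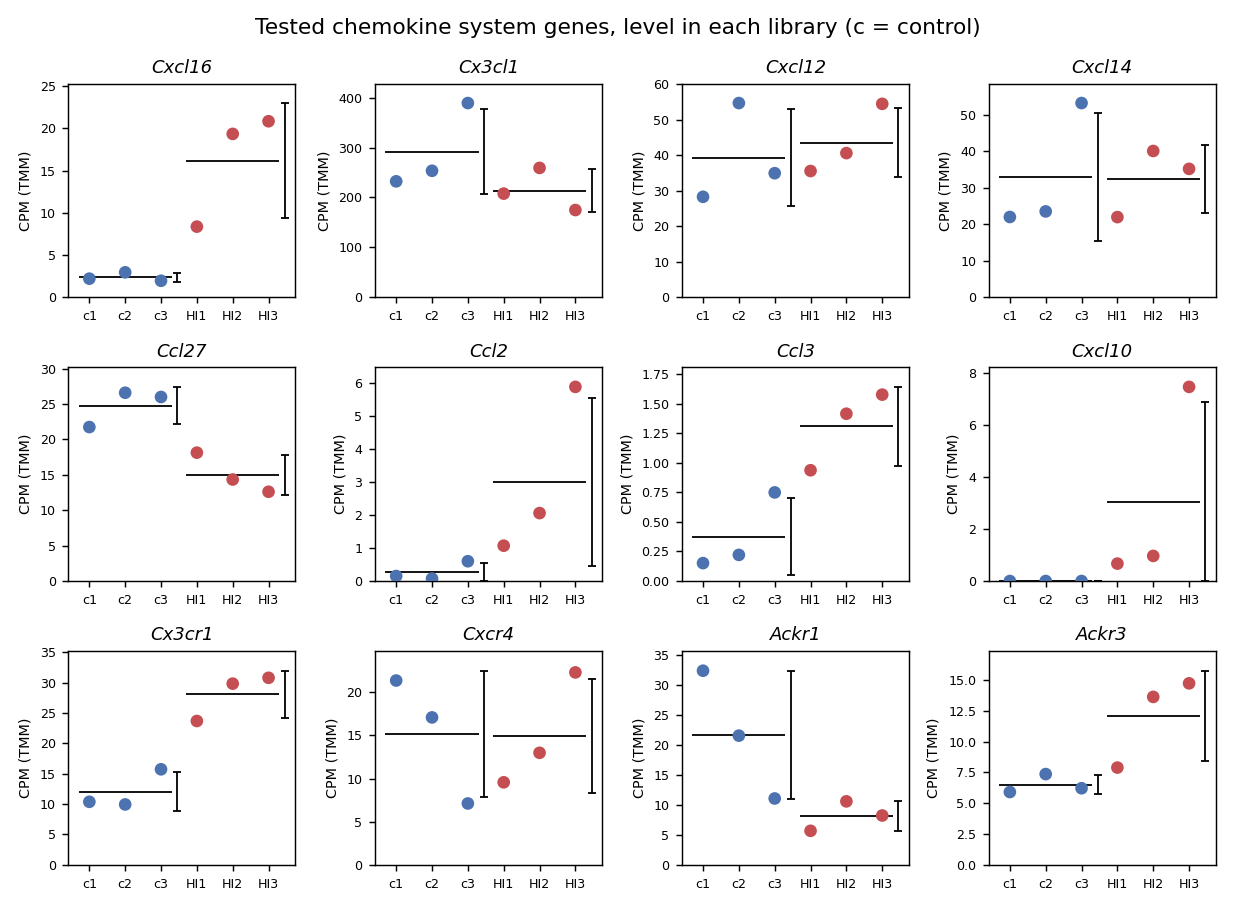
Level of each of 12 tested members in each library (CPM scaled by TMM, linear axes from 0, controls c1 to c3 in blue and HI1 to HI3 in red). Horizontal lines are group means and bars 1 SD, drawn no lower than 0. Cxcl16 and Cx3cr1 lie higher in all 3 HI libraries, Ccl27 and Ackr1 lower, and Cxcr4 and Cxcl14 are spread within both groups.

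Both transmembrane ligands could be tested. Cxcl16 is a chemokine with a membrane anchor that also acts as a scavenger receptor for oxidised lipoprotein. Its level was 2.2, 2.95 and 1.95 CPM in controls 1 to 3 and 8.36, 19.3 and 20.8 CPM in HI 1 to 3. HI 1 stood apart below the other HI libraries, yet all HI values lay above all controls. The log2 fold change was 2.77 ± 0.40 (SE, edgeR adjusted p = 0.0215). Over 15 other settings it was called in 12, with adjusted p from 2.06e-08 (DESeq2) to 0.0924 (edgeR without control 2). It was 1.68 on the log2(CPM + 0.1) scale between libraries without Y-linked reads and 3.30 between those with them. Its gene span overlaps Zmynd15 in the assembly GRCr8, but that gene had only 4 to 14 reads in a library, too few to be tested. Cxcr6, the receptor of Cxcl16, was not analysed here.

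Cx3cl1, or fractalkine, carries its chemokine domain on a mucin stalk at the surface of neurons. It stood at 232, 253 and 389 CPM in controls 1 to 3 and at 208, 259 and 175 CPM in HI 1 to 3. The groups overlapped, and control 3 was highest. Its log2 fold change was -0.45 ± 0.24, short of the threshold (edgeR adjusted p = 0.223), and it was not called in any of 15 other settings. Its receptor Cx3cr1, a marker of microglia, stood at 10.4, 9.94 and 15.7 CPM in controls and at 23.7, 29.8 and 30.8 CPM in HI. No HI library reached down to a control. The log2 fold change was 1.23 ± 0.22 (edgeR adjusted p = 0.0270). Over 15 other settings Cx3cr1 was called in 11, with adjusted p from 3.26e-05 (DESeq2) to 0.103 (edgeR without control 2). It differed by 1.21 without Y-linked reads and by 0.94 with them on the log2(CPM + 0.1) scale.

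For comparison, the 13 microglia genes, of which 9 rose, had a median log2 fold change of 1.26 in the same libraries. The microglial complement gene C1qc and the leukocyte gene Ptprc, with the smallest p of that list, rose 7.44-fold and 5.20-fold. P2ry12 and Tmem119 were not called, with log2 fold changes of -0.13 and 0.47 (edgeR adjusted p = 0.714 and 0.260). Whether the rises of Cx3cr1 and Cxcl16 follow the microglia genes was not tested. In bulk tissue, more cells of a type and more RNA per cell cannot be told apart.

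Ccr1, a receptor of Ccl3 and Ccl5, was too sparse for the filter, with 1, 0 and 0 reads across controls 1 to 3 and 7, 11 and 11 in HI 1 to 3. In the edgeR fit without a filter its adjusted p was 0.0387, beside 4.44% of genes that rose there. Ccr1 is the only member with values that were not whole, so part of its reads may be shared with a similar gene and its level is uncertain. The receptors Cxcr5 and Ccr10 reached 23 and 11 reads with overlapping groups, and their spans overlap Bcl9l and Cntnap1, so reads of the partners cannot be told apart without strand. A further 11 signalling receptors stayed below 10 reads. These were Ccr1l1, Ccr3, Ccr4, Ccr6, Ccr7, Ccr8, Ccr9, Cxcr1, Cxcr2, Cxcr3 and Xcr1, among them the neutrophil receptor Cxcr2 (at most 5 reads) and the T-cell receptor Cxcr3 (at most 4). Ccr2, the receptor of Ccl2, was not analysed here. Of 10 neutrophil and monocyte markers 7 had at most 12 reads in any library and the other 3 rose, beside the same 6.83% of all tested genes. These were the integrin subunit Itgal (7.85-fold), Plac8 (7.50-fold) and the receptor Csf3r (3.03-fold), with edgeR adjusted p = 0.0198, 0.0310 and 0.0286. Among lymphocyte markers Cd3d, Cd3e and Cd3g of T cells had at most 1 read. Cd8a had 1, 4 and 6 reads in controls and 23, 68 and 69 in HI. Its log2 fold change was 3.58 ± 0.67 (edgeR adjusted p = 0.0275). Plac8 (8, 6 and 1 reads in controls) and Cd8a passed the filter on low counts through their HI reads alone, so they had to differ. The part of these cells in the chemokine results was not tested.

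Of the Cxcl12 axis, neither the ligand nor its receptors Cxcr4 and Ackr3 passed the threshold. Cxcl12, the ligand of both Cxcr4 and Ackr3, stood at 28.2, 54.6 and 34.9 CPM in controls and 35.5, 40.5 and 54.4 CPM in HI. Control 2 and HI 3 were the high libraries, and the log2 fold change was 0.15 ± 0.28 (edgeR adjusted p = 0.727). The summed mural and fibroblast markers were 68.4, 178 and 82.1 CPM in controls and 171, 177 and 472 CPM in HI. Their part in the Cxcl12 level was not tested. Cxcr4 stood at 21.4, 17.1 and 7.11 CPM in controls and 9.56, 13.0 and 22.3 CPM in HI. The libraries spread over the same range in both groups, with a log2 fold change of -0.02 ± 0.47 (edgeR adjusted p = 0.978). Between libraries without Y-linked reads Cxcr4 was lower in HI by -0.99 on the log2(CPM + 0.1) scale, and between those with them higher by 1.25. Each side of that split holds a lone library of 1 group, and the difference was not tested. Ackr3, which scavenges Cxcl12, stood at 5.91, 7.36 and 6.21 CPM in controls and 7.89, 13.6 and 14.7 CPM in HI. HI 1 lay just above the highest control. The log2 fold change, 0.89 ± 0.27, missed the threshold (edgeR adjusted p = 0.0698), and it was called in 3 of 15 other settings (adjusted p from 0.0187 without HI 1 to 0.199 without control 1, both by edgeR).

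Ackr1, the Duffy antigen receptor, is known from venules and red blood cells, where it binds inflammatory chemokines. It stood at 32.4, 21.6 and 11.1 CPM in controls 1 to 3 and 5.68, 10.6 and 8.24 CPM in HI 1 to 3. The controls spread widely and control 3 lay just above HI 2, although no HI library reached a control. The log2 fold change was -1.41 ± 0.42, above the threshold on adjusted p (edgeR adjusted p = 0.0669). Ackr1 was called in 2 of 15 other settings, with adjusted p from 7.64e-03 (DESeq2) to 0.202 (edgeR with Y-linked reads as a term). Between libraries without Y-linked reads the difference was -2.2 on the log2(CPM + 0.1) scale, and between those with them -0.24. Of 6 endothelial markers 1 rose and 0 fell, beside 6.83% and 7.04% of all tested genes. Their sums were 139 to 189 CPM in controls and 154 to 307 CPM in HI. The remaining scavengers Ackr2 and Ackr4 and the chemerin-binding receptor Ccrl2 had 6 to 17, 4 to 57 and 1 to 12 reads, with overlapping groups. Ackr4 reached 57 reads in HI 3 alone, and it overlaps Acad11, which had 441 reads in that library.

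**Figure D2:**
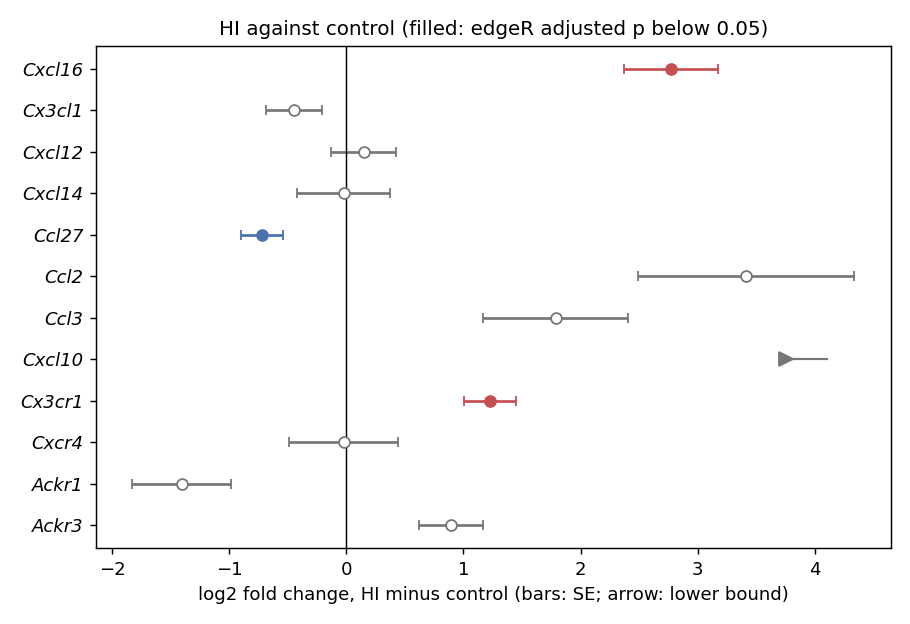
Log2 fold change, HI minus control, of 12 tested members with SE from the edgeR fit. Filled points passed an adjusted p below 0.05, and the arrow marks the lower bound for Cxcl10 (3.76), which had no read in a control.

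Of 3 tested constitutive ligands, Ccl27 fell and Cxcl12 and Cxcl14 overlapped between the groups. Ccl27, known as an attractant of T cells to skin, stood at 21.7, 26.6 and 26 CPM in controls and 18.1, 14.3 and 12.6 CPM in HI. All HI libraries lay below all controls. The log2 fold change was -0.72 ± 0.18 (edgeR adjusted p = 0.0462). It passed in 5 of 15 other settings, with adjusted p from 5.27e-03 (DESeq2) to 0.140 (edgeR without control 2). Scaled by total counts or upper quartiles, which shift the median log2 fold change over the whole table by 0.19 and 0.10, the log2 fold change was -0.53 and -0.63 and did not pass (edgeR adjusted p = 0.0721 and 0.0575). The differences within libraries without and with Y-linked reads were -0.41 and -0.95 on the log2(CPM + 0.1) scale. The span of Ccl27 overlaps Il11ra1, the receptor chain of interleukin-11, in GRCr8. Il11ra1 had 118, 122 and 141 reads in controls and 216, 280 and 507 in HI, a log2 fold change of 1.15 (edgeR adjusted p = 0.0499). The strand used in counting is not given in the sources used here, so reads of these partners cannot be told apart and both values are uncertain.

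Cxcl14, a chemokine of epithelia and interneurons, stood at 22.0, 23.5 and 53.2 CPM in controls and 21.9, 40.0 and 35.1 CPM in HI. Control 3 was highest and the groups overlapped, with a log2 fold change of -0.02 ± 0.40 (edgeR adjusted p = 0.974). Cxcl17, a mucosal chemokine, had 2 reads in each control and 6, 26 and 17 in HI 1 to 3. Without a filter its edgeR adjusted p was 0.0532. Ccl19, which draws cells that carry Ccr7, had 0, 8 and 0 reads in controls and 4, 1 and 17 in HI. Its high libraries were control 2 and HI 3, as for Cxcl12. Cxcl13, Ccl21, Ccl25 and Ccl28 stayed below 10 reads.

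The inducible ligands were sparse in every control. Summed over 16 ligands, Xcl1 and the CC ligands not described above, most of them attractants of monocytes and lymphocytes, reads came to 12, 27 and 25 reads across controls 1 to 3 and 71, 111 and 256 in HI 1 to 3. The 4 neutrophil attractants Cxcl1, Cxcl2, Cxcl3 and Cxcl6 summed to 5, 1 and 8 reads in controls and 13, 23 and 64 in HI. The 3 interferon-induced ligands Cxcl9, Cxcl10 and Cxcl11 summed to 0, 1 and 0 reads in controls and 12, 19 and 140 in HI. Every HI library lay above every control in all 3 sums, and HI 3 was the highest in each. HI 3 also had the highest summed level of the microglia, border macrophage, neutrophil and monocyte, astrocyte, endothelial, mural and fibroblast, and choroid plexus markers. Lymphocyte, neuron and oligodendrocyte markers were not highest there. The mural and fibroblast sums were 171, 177 and 472 CPM in HI 1 to 3, and those of border macrophages 27.5, 20.4 and 58.6 CPM. The part of these cells in the ligand reads was not tested.

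Cxcl10, which attracts T cells and natural killer cells through Cxcr3, had no read in a control and 10, 15 and 123 reads in HI 1 to 3, or 0.669, 0.964 and 7.45 CPM. HI 3 held most of its reads. Against a floor of 3 reads per library it was at least 13.5-fold higher in HI, and at least 3.64-fold without HI 3. The test did not pass (edgeR adjusted p = 0.0659), and it was called in 4 of 14 other settings, with adjusted p from 1.04e-04 (DESeq2) to 0.143 (edgeR without control 1). Cxcl11 next to it in the genome had 0, 1 and 0 reads in controls and 2, 2 and 15 in HI, and Cxcl9 at most 2. Both Cxcl10 and Cxcl11 overlap the span of Art3, which had 21 to 39 reads in controls and 30 to 69 in HI.

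Ccl2, the main attractant of monocytes, had 2, 1 and 8 reads across controls 1 to 3 and 16, 32 and 97 in HI 1 to 3, or 0.151, 0.0736 and 0.599 CPM against 1.07, 2.06 and 5.88 CPM. The groups did not overlap, and HI 3 again stood highest. Its log2 fold change was 3.42 ± 0.92 and not called (edgeR adjusted p = 0.0544), and 4 of 15 other settings called it (2.47 without HI 3 and 4.60 without control 3 on the log2 scale, neither called), with adjusted p from 4.37e-03 (DESeq2) to 0.163 (edgeR without control 1). Its neighbours Ccl7 and Ccl12 had higher mean levels in HI and too few reads to be tested. Ccl7, another monocyte attractant, had 1, 7 and 3 reads in controls and 7, 17 and 41 in HI, where HI 1 tied with control 2 in reads. Ccl12, a close relative of Ccl2, had no read in a control and 9, 14 and 31 in HI, at least 5.02-fold higher against the floor and at least 3.35-fold without HI 3. In the edgeR fit without a filter, where 4.44% of genes rose, its adjusted p was 0.0340. Over the run of neighbours Ccl2, Ccl7, Ccl11, Ccl12 and Ccl1 reads came to 4, 9 and 11 in controls and 33, 64 and 171 in HI.

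A separate run of neighbours holds Ccl5, Ccl9, Ccl6, Ccl3 and Ccl4, with 8, 9 and 11 reads in controls and 27, 39 and 66 in HI. Ccl3, a ligand of Ccr1 made by activated microglia, had 2, 3 and 10 reads in controls and 14, 22 and 26 in HI. Its log2 fold change was 1.79 ± 0.62 and not called (edgeR adjusted p = 0.0913). Control 3 was the highest control, and without it the log2 fold change was 2.72 (edgeR adjusted p = 0.0422). Ccl4, a close relative of Ccl3, had 4, 3 and 0 reads in controls and 5, 11 and 17 in HI, and Ccl6 0, 1 and 0 against 3, 1 and 13. Ccl5 had at most 3 reads, so a difference in this T-cell and antiviral chemokine was not detectable at this depth. Ccl22, made by dendritic cells and macrophages, had no read in a control and 4, 3 and 5 in HI, close to the floor.

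Among neutrophil attractants, Cxcl1 had no read in a control and 2, 4 and 47 in HI 1 to 3, at least 4.81-fold higher against the floor. Without HI 3 its HI mean, 0.195 CPM, was at the level of 3 reads, so the bound rests on that library. Cxcl3 had 4, 1 and 3 reads in controls and 9, 13 and 8 in HI, without an HI 3 excess. Cxcl2 and Cxcl6 had at most 2 and 7 reads. In the fit without a filter the edgeR adjusted p was 0.115 for Cxcl1 and 0.138 for Cxcl3. The ligands Ccl1, Ccl5, Ccl9, Ccl11, Ccl17, Ccl20, Ccl22, Ccl24, Ccl26 and Xcl1 were below 10 reads in every library.

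**Figure D3:**
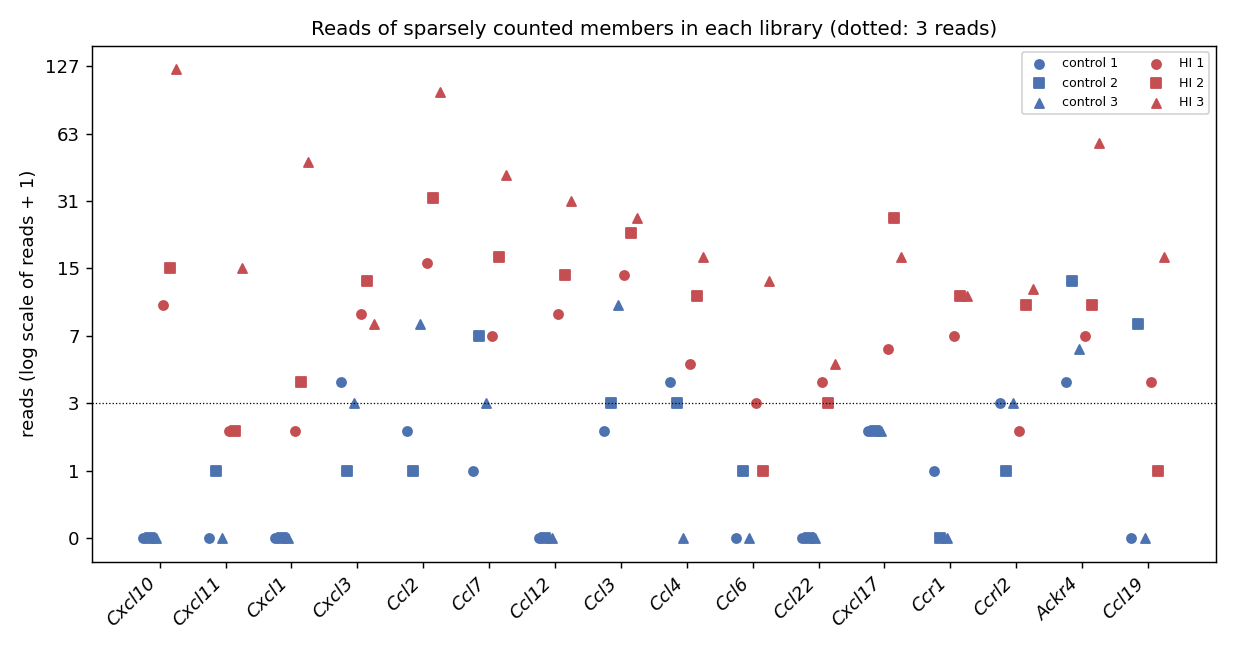
Reads of 16 sparsely counted members in each library, on a log scale of reads + 1 with the 3-read limit dotted (controls blue, HI red, with circles, squares and triangles for libraries 1, 2 and 3). Cxcl10, Cxcl1, Ccl12 and Ccl22 have 0 reads in the controls, and HI 3 is highest for Cxcl10 (123 reads), Ccl2 (97) and Cxcl1 (47).

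Of the 28 members with at least 10 reads in a library, all 3 HI libraries lay above all 3 controls in 14, beside 21.6% of all genes with that many reads, and below them in 2, beside 19.8%. Members with few reads reach 10 more readily where they are high, which tilts that count. Of the 54 members with any read, 9 had reads in HI alone (16.7%, beside 4.78% of all genes with a read) and 3 in controls alone (5.56%, beside 1.90%). The 9 were Ccl12, Ccl22, Ccl28, Ccr4, Ccr6, Cxcl1, Cxcl10, Cxcl9 and Xcr1, of which all but Ccl12, Ccl22, Cxcl1 and Cxcl10 had at most 2 reads in a library.

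Promoter sequence was read from RefSeq for 42 of the 56 members (assembly GRCr8), as the 250 bases before the annotated start, and is shown for 5 ligands. Cxcl10, Cxcl1 and Ccl7 were chosen for their matches to the kappaB consensus, after these were seen, and Ccl12 and Cxcl16 as ligands with more reads in HI that hold none of the motifs. Capitals mark matches, on either strand, to the kappaB consensus of NF-kB, to the core of the interferon response element (GAAA, any 2 bases, GAAA), and to the STAT motif TTCNNNGAA. Overlapping matches are merged.
Cxcl10 (GRCr8 chr14:15988816-15989065, plus strand): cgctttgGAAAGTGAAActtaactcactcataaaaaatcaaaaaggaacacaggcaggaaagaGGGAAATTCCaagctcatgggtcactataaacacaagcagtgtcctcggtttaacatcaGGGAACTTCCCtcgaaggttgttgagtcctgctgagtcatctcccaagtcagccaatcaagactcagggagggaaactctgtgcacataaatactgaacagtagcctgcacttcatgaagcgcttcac
Cxcl1 (GRCr8 chr14:17479322-17479571, minus strand): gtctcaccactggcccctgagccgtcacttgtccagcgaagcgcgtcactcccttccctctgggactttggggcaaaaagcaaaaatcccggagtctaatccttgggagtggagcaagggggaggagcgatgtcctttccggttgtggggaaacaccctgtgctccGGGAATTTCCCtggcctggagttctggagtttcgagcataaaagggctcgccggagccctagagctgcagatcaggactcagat
Ccl7 (GRCr8 chr10:67513845-67514094, plus strand): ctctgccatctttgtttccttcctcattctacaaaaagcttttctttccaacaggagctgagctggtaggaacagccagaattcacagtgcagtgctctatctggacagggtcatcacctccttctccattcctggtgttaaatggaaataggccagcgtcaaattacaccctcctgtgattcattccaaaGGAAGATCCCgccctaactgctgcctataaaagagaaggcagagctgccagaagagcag
Ccl12 (GRCr8 chr10:67567626-67567875, plus strand): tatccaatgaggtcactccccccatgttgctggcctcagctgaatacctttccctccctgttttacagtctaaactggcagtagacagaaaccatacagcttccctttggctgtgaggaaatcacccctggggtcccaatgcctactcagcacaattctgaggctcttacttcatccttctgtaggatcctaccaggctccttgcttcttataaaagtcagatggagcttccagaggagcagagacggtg
Cxcl16 (GRCr8 chr10:55669951-55670200, minus strand): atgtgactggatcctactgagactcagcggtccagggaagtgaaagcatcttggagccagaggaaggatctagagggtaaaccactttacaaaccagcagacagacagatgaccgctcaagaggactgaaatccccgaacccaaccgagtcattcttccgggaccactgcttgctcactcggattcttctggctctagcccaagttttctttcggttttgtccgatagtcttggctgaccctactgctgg
Counted from the annotated start, Cxcl10 holds the interferon core from position -243 and kappaB matches from -187 and -128. Cxcl1 holds a kappaB match from position -84 and Ccl7 one from -59. Ccl12 and Cxcl16 hold none of the 3 motifs in this window, which says only that these letters are absent there. The kappaB consensus was found in 9 of 42 member promoters (21.4%), beside 6.33% of all 33469 promoters of the same length. Those 9 were Ccl7, Ccl9, Ccl20, Ccr3, Cxcl1, Cxcl2, Cxcl6, Cxcl10 and Cxcl11, and among them Cxcl2 and Ccr3 had at most 2 and 3 reads, so a match did not go with reads in each case. The interferon core was found in 2 (Cxcl10 and Ccl19, 4.76% beside 3.41%) and the STAT motif in 4 (9.52% beside 7.67%). These matches describe the letters and do not show binding.

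Of 11 transcription factors listed as regulators of chemokine genes 5 rose and 0 fell. Irf7, an amplifier of interferon signalling, rose 16.9-fold (edgeR adjusted p = 0.0262). It had 11, 13 and 5 reads in controls, so control 3 lay below the minimum count and Irf7 passed the filter with its HI reads. Stat3 and the NF-kB subunit Nfkb2 rose 2.17-fold and 3.80-fold (edgeR adjusted p = 0.0274 and 0.0285). Irf7 stood at 4.15, 9.96 and 22.8 CPM in HI 1 to 3, so HI 3 was highest here as for Cxcl10. These counts stand beside the same 6.83% background of rising genes.

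Downstream of the receptors, 7 of 28 tested signal transduction genes rose and 5 fell, beside 6.83% and 7.04% of all tested genes. Their median log2 fold change was 0.14, beside 0.04 over all tested genes. The GTPase Rac2 of blood cells and microglia had 4.84 ± 1.01 CPM in controls and 27.4 ± 9.37 CPM in HI (SD, n = 3 each), a rise of 5.66-fold, with exchange factor Dock2 at 2.72-fold and the exchange factor Vav1 at 5.16-fold (edgeR adjusted p = 0.0215, 0.0238 and 0.0267). Ptk2b, a calcium-activated kinase also abundant in forebrain neurons, fell to 0.176 of its control level, from 207 ± 32.7 to 36.2 ± 9.76 CPM (edgeR adjusted p = 0.0196). This list held members that rose and members that fell. Of 8 tested chemokine-related genes under other names 3 rose and 0 fell, beside the same 6.83% and 7.04%. Cd74, a receptor for Mif and the invariant chain of MHC class II, rose 8.47-fold, and the chemerin receptor Cmklr1 4.38-fold (edgeR adjusted p = 0.0215 and 0.0238). Cd74 had 7, 14 and 13 reads in controls, so it too passed the filter with its HI reads. Adam17, a protease that can release Cx3cl1 from the cell surface, rose 1.82-fold (edgeR adjusted p = 0.0282). Mif itself was not called, with a log2 fold change of -0.54 ± 0.14 (edgeR adjusted p = 0.0504).

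**Figure D4:**
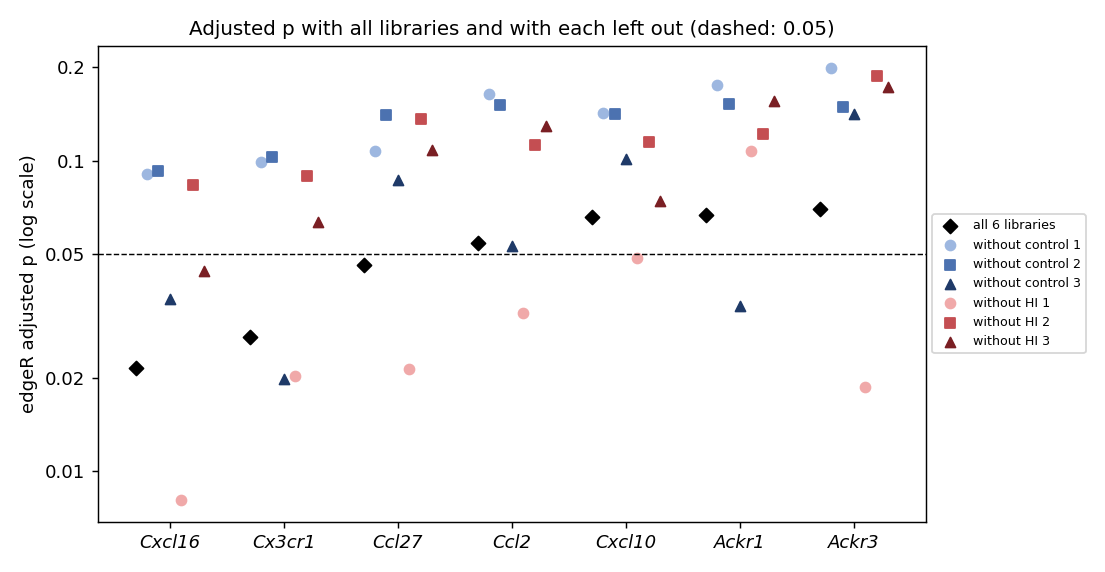
Adjusted p of edgeR for 7 members with all 6 libraries (black diamonds) and with each library left out (log axis, dashed line at 0.05). None of the 7 lies below the line without control 1, control 2 or HI 2, and Cxcl16 is below it without control 3, HI 1 or HI 3.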

How the data were processed

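RNA from 6 rat brain libraries was sequenced. TRIzol extraction and a SMARTER mRNA-Seq library kit are named per the labels' protocols. The tools StringTie 2.2.1, HISAT2 2.1.0 and SAMtools 1.10 and the build Rnor 6.0 are named per the submitters' processing notes. How reads were counted, and with which strand setting, is not given in the sources used here. Values deposited by the authors are estimated counts, unscaled (8.87% of entries not whole to within 1e-09). Groups and replicate numbers came from sample titles.

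Counts were rounded, filtered with filterByExpr (minimum count 10), scaled by TMM and fitted with edgeR 4.0.16 (limma 3.58.1, DESeq2 1.42.0, R 4.3.3), group as the only term. SE were derived from the F statistic. On simulated data for HI against control (14959 genes), edgeR recovered 100 of 100 4-fold and 28 of 100 2-fold changes. The simulation gave every gene the same dispersion (scatter between libraries), so it does not tell which changes were missed in the real libraries. There Ccl2, with a log2 fold change of 3.42, was not called. Intervals and floors cover counting error only. Of the tested members 12 are named with each library's value. Counts cover all 13, and 1 tested member and 1 list gene are not reported here. Members not tested are given by reads, and up to 4 genes of a list are named by smallest p. P2ry12 and Tmem119 were added as microglia genes that were not called. The members and lists were chosen with earlier results of these data known. Alternatives were other scalings, tests, filters and thresholds, a replicate block, each library left out and, added after seeing the data, Y-linked reads as a term. Overlapping and neighbouring genes (at most 5 protein-coding genes between) came from the RefSeq table of GRCr8, where all 56 members matched by gene number. Of the marker lists, those of border macrophages, mural cells and fibroblasts, and oligodendrocytes had 3, 1 and 0 rises and 0, 0 and 2 falls. Astrocytes had 2 and 0, neutrophils and monocytes 3 and 0, lymphocytes 1 (Cd8a) and 0, and choroid plexus 0 and 0. Over all tested genes 6.83% rose and 7.04% fell. Plac8 and Cd8a were among the genes that passed the filter through their HI reads alone. So were the border macrophage genes Folr2 (1, 5 and 4 reads in controls) and Clec10a (4, 6 and 2), which therefore had to differ.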

Additional observations from a re-analysis of the deposited data

How the results depend on the processing

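The directions of Cxcl16, Cx3cr1, Ccl27, Ccl2, Ccl3, Cxcl10, Ackr1, Ackr3 and Cx3cl1 held in all settings run for each (14 or 15). Those of Cxcl12, Cxcl14 and Cxcr4, none of them called, did not. Cxcl14 had log2 fold changes of 0.062 with limma-voom, 0.053 with the replicate block, 0.16 and 0.079 with total-count and upper-quartile scaling, and -0.27 to 0.47 with a library left out. Cxcr4 had 0.046, 0.19 and 0.079 with limma-voom, total-count and upper-quartile scaling, 0.14 with Y-linked reads as a term, and -0.43 to 0.27 with a library left out, and Cxcl12 -0.076 to 0.43.

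The number of members that rose, 3, became 6 with DESeq2, 5 with total-count scaling, 7 at an adjusted p below 0.1 and 0 to 9 with a library left out. The number that fell, 1, became 2 with DESeq2 and at 0.1, 0 without a filter, with the replicate block, with total-count or upper-quartile scaling and with Y-linked reads as a term, and 0 to 1 with a library left out. The number of members with at least 10 reads, 28, became 54 at 1 read. Over all genes the 2074 calls became 4366 at an adjusted p below 0.1, 4200 with DESeq2, 1371 with limma-voom, 774 with Y-linked reads as a term and 0 to 3689 with a library left out (0 without control 1 or HI 2, 1 without control 2, 644 without HI 3, 3689 without HI 1). Total-count and upper-quartile scaling gave 74.7% and 64.3% of calls higher in HI, beside 49.2%. The causes were not tested.

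Deviations from the group mean correlated at 0.239, 0.0731 and -0.146 between same-numbered libraries. Of 6 libraries, 3 correlated best with their own number. With 3 libraries per group this cannot tell whether the numbers pair them. With the replicate block, 1723 genes were called, and among the members named here Ccl2 and Cxcl10 entered while Ccl27 left. Cxcl10 passed only just (adjusted p = 0.04999 by edgeR). Depth limits 28 members with fewer than 10 reads.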
